A study of Homo sapiens with 24 samples.

Results

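HCT116 cells that received siACL and 5 mM butyrate were set beside HCT116 cells that received siMock and 2 mM butyrate, the next lower dose of the control arm. The comparison holds 3 arrays of siACL at 5 mM and 3 arrays of siMock at 2 mM, chosen by their labels alone, out of 24 arrays in the series. It asks which genes still differed when the depleted cells were matched to a lower control dose instead of to the same dose. HCT116 is a human colorectal carcinoma line, here kept in a glucose-containing medium, and every group received its dose for 3 days. Both arms, siACL and siMock, were measured at 0, 0.5, 2 and 5 mM butyrate with 3 arrays for each of the 8 groups, and the labels call the arrays of a group biological replicates. All groups are 1 cell line, and no source used here gives the siRNA sequences behind siACL and siMock. The 2 groups differ in both the siRNA and the dose, so within this comparison the share of each cannot be told apart.

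Butyrate is a short-chain fatty acid that bacteria make in the colon. Colonocytes burn it as a fuel, and it inhibits histone deacetylases, which raises histone acetylation, stops proliferation and switches on many genes that are otherwise silent in colorectal cancer cells. ATP-citrate lyase, encoded by ACLY and targeted by siACL, splits citrate into oxaloacetate and acetyl-CoA, the acetyl donor for lipid synthesis and for histone acetylation. Setting depleted cells beside a lower control dose asks how much of their difference from control cells remains once the dose is shifted.

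The deposited values are scores, not intensities. Each array's 20747 entries were ranked and the ranks turned into normal scores between -3.90 and 3.90, so 0 marks the middle rank. A difference between scores is a shift in rank position, from which no fold change can be read, and a rise or fall common to the whole array is invisible. Whether a low-scoring gene was above background on the array is not known from these values. Differences below are siACL at 5 mM minus siMock at 2 mM with their standard error, n = 3 arrays each, and "called" means a limma adjusted p under 0.05 over all 18172 genes tested in the fit of 24 arrays. Correlations between arrays were 0.937 to 0.942 within siACL at 5 mM, 0.930 to 0.933 within siMock at 2 mM and 0.919 to 0.927 between the groups.

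Of the 18172 genes, 1964 (10.8%) differed between siACL at 5 mM and siMock at 2 mM, 1038 (5.71%) of them higher and 926 (5.1%) lower. Most of the differences were small, with a median size of 0.148 score units among the called genes and 0.088 among all genes. Only 249 called genes differed by 0.5 or more and 112 by 1 or more. The arrays of the 2 groups did not overlap for 1931 of the called genes, against 5406 (29.7%) of all genes tested. A gene was termed level when the 95% interval of its difference lay within 0.25 of 0, and 9237 genes (50.8%) were level. Because precise small differences can also be called, 1236 genes were both called and level. Another 8207 genes were neither called nor level, so these arrays showed neither a difference nor its absence. With the spread estimated from the 6 arrays compared alone, 57 genes were called (35 higher, 22 lower), 46 of which were also among the 1964. Without siACL replicate 1, 1276 genes were called.

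Against the other control doses, the same 3 siACL arrays at 5 mM differed from siMock at 0 mM in 8095 genes (44.5%), at 0.5 mM in 6010 (33.1%), at 2 mM in the 1964 above and at 5 mM in 2493 (13.7%). The median size of the difference was 0.184, 0.141, 0.088 and 0.0913 score units in that dose order. The medians at 2 and 5 mM changed order without siMock replicate 1 of 2 mM (0.0939 and 0.0913) and without its replicate 2 (0.0922 and 0.0913). The count was lowest against 2 mM in the fit of all arrays and in all 13 alternatives in which the 4 doses were compared, for example 57 genes against 413 at 5 mM with only the compared arrays, and 1276 against 1753 without siACL replicate 1. Leaving out a siMock array of 2 mM makes that group smaller, which by itself lowers its count. These 4 comparisons share the siACL arrays, and the difference between their counts was not tested. The directions differed too: against siMock at 2 mM the calls were near balance, whereas against siMock at 5 mM 1600 were higher and 893 lower. For scale, siMock cells at 5 mM differed from siMock cells at 2 mM in 5315 genes (29.2%; 14.1% higher, 15.1% lower), siACL cells at 5 mM from siACL cells at 2 mM in 5183 (28.5%; 14.2% higher, 14.3% lower), and siACL cells from siMock cells at the shared dose of 2 mM in 3479 (19.1%).

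**Figure D1:**
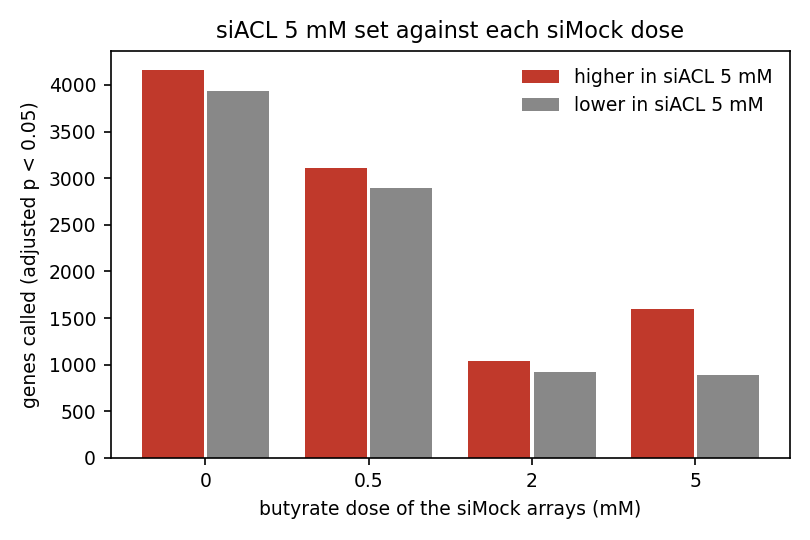
Genes called between siACL at 5 mM and each siMock dose. The x axis gives the butyrate dose of the siMock arrays in mM and the y axis the number of genes with an adjusted p under 0.05, red for higher and grey for lower in siACL at 5 mM; bars are lowest at 2 mM in sum (1038 higher and 926 lower).

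ACLY itself had the smallest adjusted p of all genes tested. Its scores were 0.677, 0.702 and 0.671 in siACL at 5 mM, against 1.35, 1.42 and 1.34 in siMock at 2 mM. No siACL array came near the control arrays, which placed ACLY at the 91.0 to 92.2 percentile of the array, whereas the siACL arrays at 5 mM placed it at the 74.9 to 75.9 percentile. The difference was -0.69 ± 0.0219 (adjusted p = 3.1e-12). Means over 0, 0.5, 2 and 5 mM were 1.18, 1.11, 0.953 and 0.683 in siACL and 1.52, 1.51, 1.37 and 1.31 in siMock, so the siACL mean lay below the siMock mean at each dose and was lowest at 5 mM. ACLY was also the one gene called outside all 4 siMock doses, that is, different in the same direction from siMock at 0, 0.5, 2 and 5 mM (1 of 18172, 0.0055%). With the largest of the 4 p-values left unadjusted at 0.05, 78 genes lay above and 110 below all siMock doses. With only the arrays compared, 0 genes met the adjusted rule, and with percentile ranks in place of scores 3 did. In bulk RNA, a lower value through fewer cells of a kind and through less RNA in each cell cannot be told apart.

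Genes that butyrate moved in control cells split by direction. They were chosen on siMock at 5 mM against 0 mM, arrays that are not in the comparison, as called genes that changed by at least 1 score unit. Of 589 such genes that rose in control cells, 105 (17.8%, against 5.71% of all genes) were higher in siACL at 5 mM than in siMock at 2 mM and 0 were lower, with a median difference of 0.256. Of 317 that fell in control cells, 8 (2.52%) were higher and 23 (7.26%) lower, with a median difference of -0.0484. The median over all genes tested was 0.00544.

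The array medians show the same split. The 589 rising genes had median scores of -0.126, -0.132 and -0.141 in siACL at 5 mM, against -0.453, -0.417 and -0.443 in siMock at 2 mM. All siACL arrays lay above all siMock arrays at 2 mM and below the siMock arrays at 5 mM, which were at -0.0152, -0.0282 and -0.0211. The 317 falling genes had median scores of -0.971, -1.09 and -1.07 in siACL at 5 mM, against -1.10, -0.992 and -1.04 in siMock at 2 mM, and here the groups overlapped. The siMock arrays at 5 mM were far lower, at -1.80, -1.70 and -1.67. The siMock arrays at 0 and 5 mM chose these genes, so their own medians only describe the choice. In siACL at 2 mM the falling genes still stood at -0.426, -0.528 and -0.509. The count of rising genes called higher was 180 with percentile ranks, 26 with only the arrays compared and 25 when only genes with a mean score above 0 were tested.

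**Figure D2:**
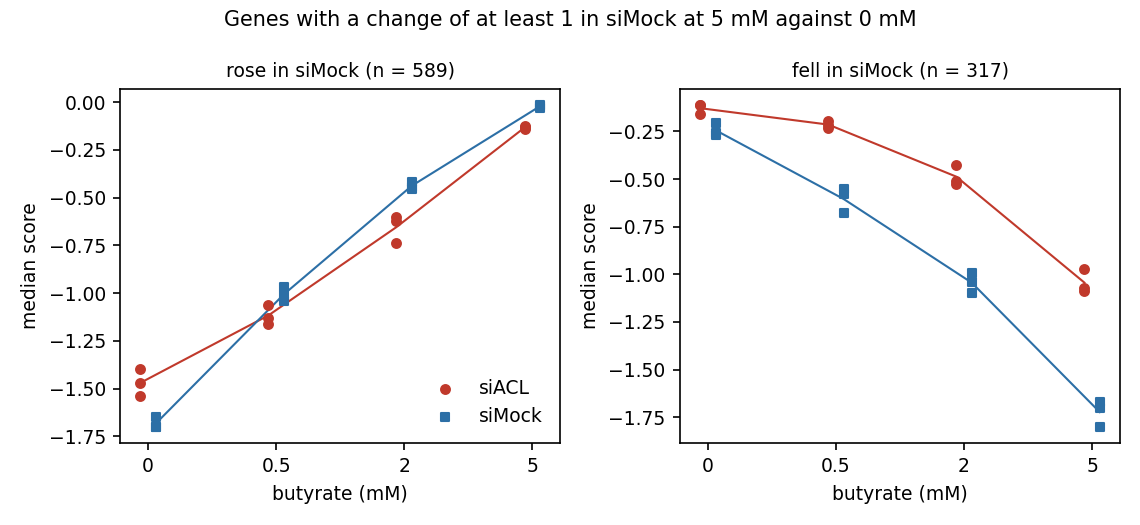
Median score in each array (points) of the genes that rose (left, n = 589) and fell (right, n = 317) by at least 1 score unit in siMock at 5 mM against 0 mM, by butyrate dose in mM; lines join group means, siACL red and siMock blue. At 5 mM the siACL points lie near the siMock points of 5 mM on the left (-0.126 to -0.141) and near the siMock points of 2 mM on the right (-0.971 to -1.09).

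Mitotic genes were lower in siACL at 5 mM as a group. Their products build the spindle, check its attachment and drive entry into and exit from mitosis. Of 40 measured, 36 were lower and 0 higher (5.1% and 5.71% of all genes), with a median difference of -0.249. The list median was 0.874, 0.827 and 0.837 in siACL at 5 mM, against 1.12, 1.11 and 1.10 in siMock at 2 mM, with no overlap. The 4 members not called were PLK1 (-0.35, adjusted p = 0.18), MAD2L1 (-0.107, adjusted p = 0.059), CDC25B (-0.0593, adjusted p = 0.31) and MKI67 (-0.169, adjusted p = 0.35). Against siMock at 5 mM, where 8.8% of all genes were called higher, all 40 were higher in siACL at 5 mM with a median difference of 0.333. The siMock arrays at 5 mM had list medians of 0.526, 0.485 and 0.483. The mitotic genes of depleted cells at 5 mM therefore stood between the control values at 2 and at 5 mM. In siACL at 2 mM the list median was 1.18 in each of the 3 arrays. With only the arrays compared 7 of the 40 were called lower, and 33 to 35 when 1 array was left out.

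KIF20A, a kinesin needed for cytokinesis, had scores of 0.724, 0.843 and 0.809 in siACL at 5 mM, against 1.22, 1.22 and 1.18 in siMock at 2 mM. Its difference of -0.41 ± 0.0327 (adjusted p = 9.6e-07) was the largest of the list. CCNB2, a B-type cyclin that activates CDK1, had scores of 0.979, 1.03 and 0.996 in siACL at 5 mM, against 1.38, 1.39 and 1.36 in siMock at 2 mM (difference -0.37 ± 0.0288, adjusted p = 9.4e-07). CDC25C, the phosphatase that releases CDK1 from inhibition, had 0.141, 0.115 and 0.115 in siACL at 5 mM, against 0.439, 0.513 and 0.471 in siMock at 2 mM (difference -0.35 ± 0.0523, adjusted p = 0.00035). None of these genes had overlapping groups. ESPL1, the separase that cuts cohesin at anaphase, had 0.193, 0.302 and 0.204 in siACL at 5 mM, against 0.602, 0.577 and 0.523 in siMock at 2 mM. CENPA, the centromeric histone H3 variant, differed by -0.32 ± 0.0317 (adjusted p = 8.4e-06), and ASPM, a spindle pole protein, by -0.29 ± 0.0423 (adjusted p = 0.00031).

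Many mitotic promoters carry a cell cycle homology region (CHR), an element bound by the DREAM and MMB complexes that time mitotic transcription. Its core TTTGAA, or the variant TTCGAA, was searched on both strands in the 150 bases before the RefSeq start. It was found in 17 of the 35 mitotic genes with a promoter entry (48.6%), in 0 of 34 DNA replication genes, and in 519 of 10221 promoters of genes tested here (5.08%). A match describes the sequence and shows no binding. The promoters of the 4 largest mitotic falls that hold the element are shown because they are the stretch these genes share; the 150 bases before the start are given 5′ to 3′ on the gene's strand (RefSeq, GRCh38.p14), with the match in capitals. They lie at chr15:59104996-59105145 (CCNB2, + strand), chr12:53268149-53268298 (ESPL1, + strand), chr2:26785906-26786055 (CENPA, + strand) and chr1:197146670-197146819 (ASPM, - strand).
CCNB2: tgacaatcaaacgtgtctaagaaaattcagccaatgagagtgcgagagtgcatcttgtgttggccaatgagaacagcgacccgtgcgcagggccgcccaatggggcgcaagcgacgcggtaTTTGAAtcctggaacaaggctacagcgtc
ESPL1: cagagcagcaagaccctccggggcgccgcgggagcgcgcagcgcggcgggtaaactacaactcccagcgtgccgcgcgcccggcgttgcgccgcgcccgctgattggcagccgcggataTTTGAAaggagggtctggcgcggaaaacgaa
CENPA: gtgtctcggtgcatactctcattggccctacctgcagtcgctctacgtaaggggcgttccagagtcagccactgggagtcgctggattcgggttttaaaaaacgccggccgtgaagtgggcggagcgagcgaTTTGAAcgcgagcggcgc
ASPM: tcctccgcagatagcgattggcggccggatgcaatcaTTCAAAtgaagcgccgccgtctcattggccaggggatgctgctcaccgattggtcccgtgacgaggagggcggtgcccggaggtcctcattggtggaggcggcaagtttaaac
Counted from the start, with -1 the base before it, the element begins at -29 in CCNB2, -31 in ESPL1 and -18 in CENPA, and at -113 in ASPM, where the match is on the opposite strand.

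DNA replication genes moved less. Of 40 measured, 10 were lower and 1 higher (5.1% and 5.71% of all genes), with a median difference of -0.0501. Against siMock at 5 mM 23 were higher and 0 lower (8.8% and 4.91% of all genes). TK1, the thymidine kinase of S phase, had 1.69, 1.73 and 1.72 in siACL at 5 mM, against 1.87, 1.88 and 1.86 in siMock at 2 mM (difference -0.16 ± 0.0207, adjusted p = 0.00011). MCM7, a subunit of the replicative helicase, differed by -0.16 ± 0.0231 (adjusted p = 0.00027), and LIG1, which joins Okazaki fragments, by -0.15 ± 0.0454 (adjusted p = 0.046). The one member higher was CDC6, which loads the helicase, at -0.151, -0.15 and -0.268 in siACL at 5 mM, against -0.568, -0.473 and -0.976 in siMock at 2 mM (difference 0.48 ± 0.148, adjusted p = 0.046). A list of CDK inhibitors and antiproliferative genes held 3 of 15 members higher and 0 lower, with a median difference of 0.0334. The 3 called were BTG1 (0.143, adjusted p = 0.0023), GADD45B (0.143, adjusted p = 0.025) and the pocket protein gene RBL2 (0.117, adjusted p = 0.042). The CDK inhibitor genes CDKN1A (-0.0603), CDKN1B (-0.0664), CDKN1C (-0.0326), CDKN2A (-0.258) and CDKN2B (0.166) were not called.

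Metallothioneins, small proteins that bind zinc and copper, were close between the groups. Of 8 measured genes of this list, which also holds the zinc exporter gene SLC30A1, 2 were higher and 0 lower (5.71% and 5.1% of all genes), with a median difference of 0.0865. The list median was 2.05, 2.08 and 2.08 in siACL at 5 mM, against 1.95, 1.93 and 1.95 in siMock at 2 mM. At the shared dose of 2 mM, 6 of 8 were lower in siACL than in siMock (8.52% of all genes were), with a median difference of -0.362. At the shared dose of 5 mM, 4 of 8 were lower in siACL (4.91% of all genes), with a median difference of -0.265. MT1X had 2.51, 2.60 and 2.55 in siACL at 5 mM, against 2.42, 2.39 and 2.40 in siMock at 2 mM (difference 0.15 ± 0.0284, adjusted p = 0.0023), and 3.06 on average in siMock at 5 mM. The MT1X call was lost with percentile ranks (adjusted p = 0.63). MT1F had 1.67, 1.72 and 1.71 in siACL at 5 mM, against 1.55, 1.51 and 1.58 in siMock at 2 mM (difference 0.15 ± 0.0231, adjusted p = 0.00046). These genes are near-identical copies, and array probes can be shared between them.

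Metallothionein promoters respond to zinc through metal response elements, bound by MTF1. The core TGCNCNC was searched on both strands in the 250 bases before the start of MT1X, at chr16:56682220-56682469 on the + strand (RefSeq, GRCh38.p14). The window is shown because MT1X was one of the 2 metallothioneins higher in siACL at 5 mM, with the matches in capitals.
MT1X: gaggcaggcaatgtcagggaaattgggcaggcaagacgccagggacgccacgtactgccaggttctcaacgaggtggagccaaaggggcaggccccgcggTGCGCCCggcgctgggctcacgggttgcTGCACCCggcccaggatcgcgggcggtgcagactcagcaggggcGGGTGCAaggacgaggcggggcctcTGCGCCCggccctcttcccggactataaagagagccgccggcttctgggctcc
It holds 4 matches, and 1.95% of the 10221 promoters of genes tested here hold at least as many; a single match is common, in 55.8% of them. No match marks a measured binding site.

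Histone genes were mixed, with 7 of 23 higher and 2 lower (5.71% and 5.1% of all genes) and a median difference of 0.12. HIST1H2BD had 1.34, 1.35 and 1.33 in siACL at 5 mM, against 0.976, 0.985 and 1.03 in siMock at 2 mM (difference 0.34 ± 0.0204, adjusted p = 2.5e-08). HIST1H1C, a linker histone gene, had 1.39, 1.37 and 1.40 in siACL at 5 mM, against 1.20, 1.17 and 1.25 in siMock at 2 mM (difference 0.18 ± 0.0364, adjusted p = 0.0038). HIST1H4H differed most of the list. It had -0.303, -0.10 and -0.257 in siACL at 5 mM, against -2.17, -1.67 and -1.73 in siMock at 2 mM (difference 1.64 ± 0.271, adjusted p = 0.00086). Lower were HIST1H4C (-0.153, adjusted p = 0.0033) and H2AFX (-0.176, adjusted p = 0.014). Histone genes also have near-identical copies.

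**Figure D3:**
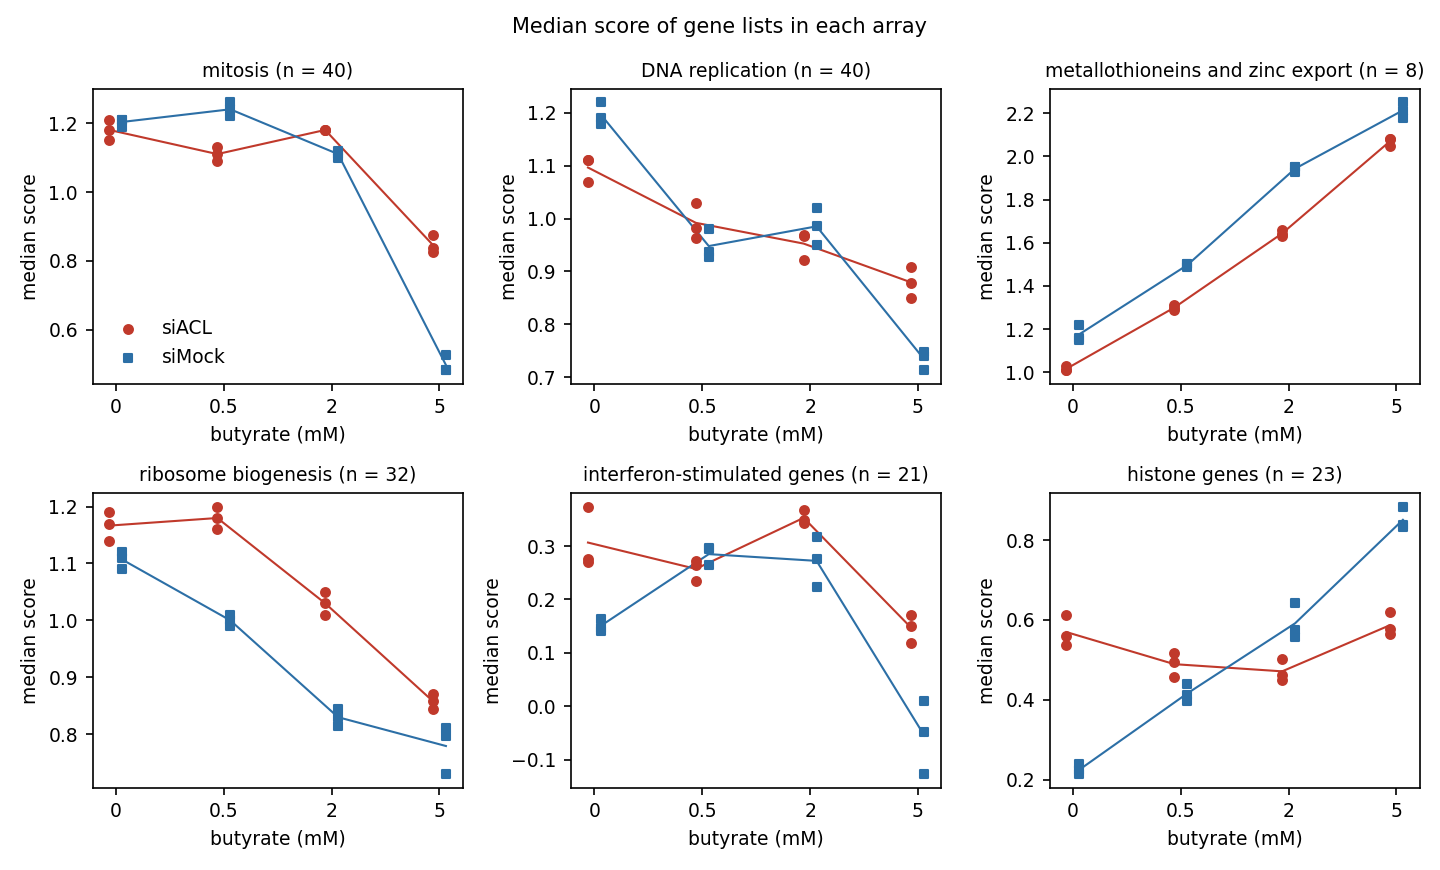
Median score of 6 gene lists in each array (points) by butyrate dose in mM, siACL red and siMock blue, with lines through group means and n the number of measured genes. At 5 mM the siACL mitosis points (0.827 to 0.874) lie between the siMock points at 2 mM (1.10 to 1.12) and at 5 mM (0.483 to 0.526).

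Among the largest rises were RYR3, GBP5, CRYBA4, SPINK1, ZNF354A, STK32B, COX7B2, FAM50B, RUNDC3A, UFSP1 and PCP4, and all 11 stood low in siMock at 2 mM. RYR3, an intracellular calcium release channel, had -0.0736, -0.188 and -0.0956 in siACL at 5 mM, against -2.61, -2.25 and -2.81 in siMock at 2 mM. Its difference was 2.44 ± 0.251 (adjusted p = 9.9e-06). Over 0, 0.5, 2 and 5 mM its mean was -2.70, -2.42, -2.66 and -0.119 in siACL and -2.58, -2.81, -2.56 and 0.0967 in siMock, so it left the bottom of the array at 5 mM in both arms and at no lower dose.

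GBP5, an interferon-inducible guanylate-binding protein, had 0.0989, 0.192 and 0.127 in siACL at 5 mM, against -2.62, -2.18 and -2.07 in siMock at 2 mM (difference 2.43 ± 0.29, adjusted p = 4.4e-05). SPINK1, a secreted trypsin inhibitor, had -1.01, -1.08 and -0.583 in siACL at 5 mM, against -3.01, -3.10 and -2.69 in siMock at 2 mM (difference 2.04 ± 0.244, adjusted p = 4.4e-05). The rule that named both genes asked for groups without overlap, and each gene had its highest mean at 5 mM in both arms. Against siMock at 5 mM their differences were -0.48 for GBP5 (adjusted p = 0.33) and -0.22 for SPINK1 (adjusted p = 0.66), neither of them called.

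STK32B, COX7B2, FAM50B, RUNDC3A and PCP4 also had their highest mean at 5 mM in both arms, with differences of 1.80, 1.79, 1.76, 1.72 and 1.68 between siACL at 5 mM and siMock at 2 mM. CRYBA4 rested on uneven controls, at 0.22, 0.0373 and 0.223 in siACL at 5 mM, against -0.785, -2.61 and -2.55 in siMock at 2 mM (difference 2.14 ± 0.458, adjusted p = 0.0057). ZNF354A and UFSP1 differed from the rest. ZNF354A, a zinc finger gene, had -0.577, -0.74 and -0.212 in siACL at 5 mM, against -1.84, -2.06 and -3.23 in siMock at 2 mM, but its siMock means at 0, 0.5, 2 and 5 mM were -0.868, -0.681, -2.37 and -0.245, so the control dose of 2 mM stood apart. UFSP1, which belongs to the UFM1 protease family, had -0.269, -0.651 and -0.673 in siACL at 5 mM, against -2.01, -2.26 and -2.40 in siMock at 2 mM. Its siACL means stayed between -0.155 and -0.531 over the 4 doses.

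**Figure D4:**
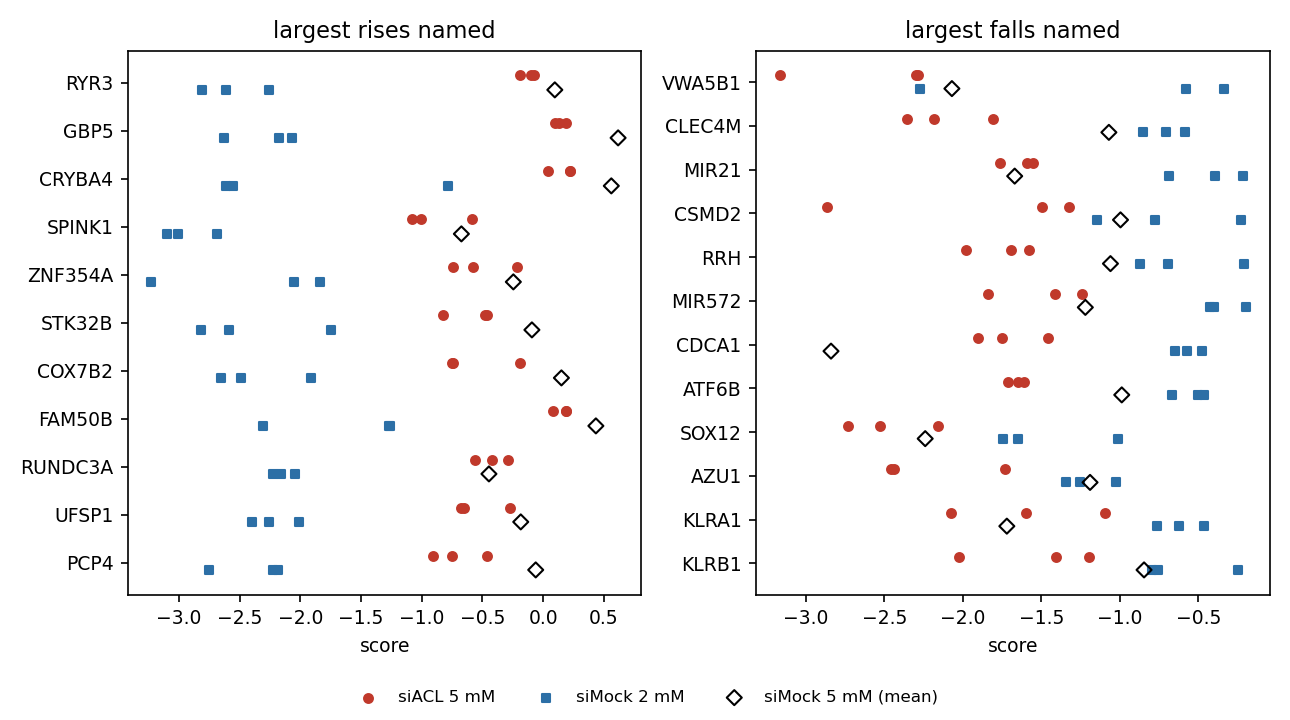
Scores of the 11 rises (left) and 12 falls (right) named among the largest, with 1 row per gene and score on the x axis; red circles are the 3 siACL arrays at 5 mM, blue squares the 3 siMock arrays at 2 mM and open diamonds the siMock mean at 5 mM. For RYR3 the siACL arrays (-0.188 to -0.0736) lie beside the siMock mean of 5 mM (0.0967).

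The 12 largest falls named were VWA5B1, CLEC4M, MIR21, CSMD2, RRH, MIR572, CDCA1, ATF6B, SOX12, AZU1, KLRA1 and KLRB1, and all lay below the middle of the array in both groups. ATF6B, an endoplasmic reticulum transcription factor related to ATF6, had -1.61, -1.65 and -1.71 in siACL at 5 mM, against -0.503, -0.466 and -0.666 in siMock at 2 mM (difference -1.11 ± 0.161, adjusted p = 0.00028). A second entry of this gene, under its older symbol CREBL1, differed by -0.23 (adjusted p = 0.18). CDCA1 is an older symbol of NUF2, a kinetochore subunit, and had -1.46, -1.75 and -1.91 in siACL at 5 mM, against -0.573, -0.476 and -0.65 in siMock at 2 mM (difference -1.14 ± 0.311, adjusted p = 0.026). The entry NUF2 differed by -0.29 ± 0.047 (adjusted p = 0.00082), in the same direction and from a higher score. VWA5B1 had -2.30, -2.29 and -3.17 in siACL at 5 mM, against -0.577, -0.34 and -2.27 in siMock at 2 mM (difference -1.52 ± 0.427, adjusted p = 0.029). Its second entry, FLJ32784, differed by -0.18 (adjusted p = 0.73). SOX12, a transcription factor gene, had -2.52, -2.16 and -2.73 in siACL at 5 mM, against -1.74, -1.01 and -1.65 in siMock at 2 mM (difference -1.01 ± 0.254, adjusted p = 0.016).

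Both microRNA genes among the falls were measured as array entries for the gene, which say nothing of the level of the mature RNA. MIR21, the gene of an oncogenic microRNA abundant in colorectal cancer, had -1.76, -1.55 and -1.59 in siACL at 5 mM, against -0.218, -0.394 and -0.686 in siMock at 2 mM (difference -1.20 ± 0.26, adjusted p = 0.0061). Over 0, 0.5, 2 and 5 mM its means were -0.396, -0.487, -0.844 and -1.63 in siACL and -0.284, -0.217, -0.433 and -1.67 in siMock, so both arms were lowest at 5 mM. MIR572 had -1.84, -1.24 and -1.41 in siACL at 5 mM, against -0.194, -0.425 and -0.401 in siMock at 2 mM (difference -1.16 ± 0.29, adjusted p = 0.016). The mature sequences (RefSeq, GRCh38.p14), with the seed of bases 2 to 8 in capitals, are given to identify the products; the 2 seeds differ. They lie at chr17:59841273-59841294 and chr4:11368887-11368906, both on the + strand.
hsa-miR-21-5p: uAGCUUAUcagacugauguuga
hsa-miR-572: gUCCGCUCggcgguggccca

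Among strong butyrate responders of control cells, some were level between siACL at 5 mM and siMock at 2 mM. Of the 589 rising genes 30 were level (5.09%) and of the 317 falling genes 15 were (4.73%), against 50.8% of all genes. These shares do not show that responders rarely match siMock at 2 mM, because a narrow interval is rare at low scores. Level genes made up 0.066% of the 4543 genes with the lowest mean score and 95.4% of the 4543 with the highest. The responders' median scores in siMock at 2 mM lay below 0. DHRS2, a mitochondrial short-chain dehydrogenase induced by deacetylase inhibitors, had 2.08, 2.15 and 2.10 in siACL at 5 mM, against 2.12, 2.10 and 2.11 in siMock at 2 mM. Its difference was -0.0011 with an interval from -0.0676 to 0.0653. Over 0, 0.5, 2 and 5 mM DHRS2 had means of -0.0477, 0.551, 1.66 and 2.11 in siACL and -0.193, 1.23, 2.11 and 2.21 in siMock. The siACL mean at 5 mM thus equalled the siMock mean at 2 mM, as the rule asks. The siMock mean at 5 mM was close as well, so DHRS2 does not single out the control dose of 2 mM. AFAP1L2, SLC8A2 and LMCD1, other rising genes named by the same rule, had differences of 0.053, 0.032 and 0.059. AFAP1L2 and SLC8A2 also moved little in siMock from 2 mM (0.43 to 0.474 and 0.423 to 0.457) to 5 mM (0.398 to 0.442 and 0.495 to 0.57). LMCD1 moved more, from 0.741 to 0.779 at 2 mM to 0.887 to 0.944 at 5 mM.

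By the rule that chose them, the falling genes that were level also had, in siACL at 5 mM, a score near that of siMock at 2 mM. MALL, a lipid raft protein gene, had 0.638, 0.639 and 0.633 in siACL at 5 mM, against 0.639, 0.649 and 0.755 in siMock at 2 mM (difference -0.044, interval from -0.0991 to 0.0109). Its means over 0, 0.5, 2 and 5 mM were 1.86, 1.72, 1.55 and 0.637 in siACL and 1.75, 1.49, 0.681 and 0.442 in siMock. ANXA3, an annexin, had 0.941, 0.827 and 0.852 in siACL at 5 mM, against 0.924, 0.863 and 0.887 in siMock at 2 mM (difference -0.018, interval from -0.0895 to 0.0537). EREG, the EGF receptor ligand epiregulin, had 0.0111, -0.0045 and -0.0359 in siACL at 5 mM, against -0.0058, 0.0936 and 0.0552 in siMock at 2 mM (difference -0.057, interval from -0.244 to 0.129). CYBRD1, a ferric reductase of the gut, differed by 0.016, and TMEM16A, the older symbol of the chloride channel gene ANO1, by 0.033, with -0.048 for the entry ANO1. At 5 mM in both arms, all 5 of these falling genes were higher in siACL than in siMock, by 0.49 for CYBRD1, 0.19 for MALL, 0.39 for TMEM16A, 0.31 for EREG and 0.37 for ANXA3. The choice favours this direction and the values only describe it. It took the largest falls of siMock at 5 mM among genes whose siACL score at 5 mM was near siMock at 2 mM.

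Some called genes differed between siACL at 5 mM and siMock at 2 mM in the direction opposite to the dose response of control cells. In siMock at 5 mM against 0 mM, 105 of the 1038 higher genes (10.1%) were called lower, against 25.2% of all genes. There 42 of the 926 lower genes (4.54%) were called higher, against 25.6% of all genes. Such opposite calls were thus rarer than among all genes. The genes named here, 5 on each side, were picked from those that moved by at least 0.5 score units in control cells. CTRL, which encodes a chymotrypsin-like protease, fell in siMock at 5 mM against 0 mM but was higher in siACL at 5 mM than in siMock at 2 mM. It had -1.96, -1.68 and -1.25 in siACL at 5 mM, against -2.97, -2.98 and -2.35 in siMock at 2 mM (difference 1.14 ± 0.248, adjusted p = 0.0065). PCIF1, which writes a methyl mark next to the mRNA cap, had -0.717, -1.12 and -0.527 in siACL at 5 mM, against -2.38, -1.53 and -2.07 in siMock at 2 mM (difference 1.21 ± 0.276, adjusted p = 0.0088). CLVS2 and the serotonin receptor gene HTR7 differed by 1.36 and 1.06. ZBED2 differed by 1.09 (adjusted p = 0.017) with overlapping arrays, at -1.37, -2.19 and -2.02 in siACL at 5 mM, against -3.49, -1.95 and -3.40 in siMock at 2 mM. All 5 stood below the middle of the array in both groups. CTRL and ZBED2 were also lower on average at 5 mM than at 0 mM within siACL, at -1.63 and -0.504 for CTRL and at -1.86 and 0.668 for ZBED2.

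In the other direction, BEGAIN, which encodes a postsynaptic protein, rose in control cells and was lower in siACL at 5 mM. It had 0.622, 0.67 and 0.59 in siACL at 5 mM, against 0.864, 0.929 and 1.01 in siMock at 2 mM (difference -0.31 ± 0.0409, adjusted p = 0.00013). Its means over 0, 0.5, 2 and 5 mM were 0.221, 0.741, 0.872 and 0.627 in siACL and 0.203, 0.751, 0.934 and 1.16 in siMock, so the arms ran together up to 2 mM and apart at 5 mM. KLF15, a Krüppel-like factor of metabolic tissues, differed by -0.18 ± 0.0511 (adjusted p = 0.028), with 0.35, 0.232 and 0.281 in siACL at 5 mM, against 0.404, 0.487 and 0.522 in siMock at 2 mM. The small nucleolar RNA SNORD13, the melanosome gene SILV (PMEL) and the class II chain gene HLA-DRA differed by -0.18, -0.16 and -0.12.

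Called members of the interferon and MHC class I lists were all lower. Of 21 interferon-stimulated genes, 5 were lower and 0 higher (5.1% and 5.71% of all genes), with a median difference of -0.101. Of 15 genes of MHC class I and peptide loading, 4 were lower and 0 higher, with a median of -0.0746. IFITM2, which blocks viral entry, had 1.45, 1.43 and 1.38 in siACL at 5 mM, against 1.56, 1.57 and 1.56 in siMock at 2 mM (difference -0.14 ± 0.0305, adjusted p = 0.0066). IFITM3 (-0.125), IFIT1 (-0.162), IFI6 (-0.116) and ISG15 (-0.101) were the other called members. PSME1, a proteasome activator subunit, had 1.20, 1.22 and 1.23 in siACL at 5 mM, against 1.37, 1.31 and 1.36 in siMock at 2 mM (difference -0.14 ± 0.0213, adjusted p = 0.0006). HLA-B (-0.125), TAP1 (-0.109) and the peptide transporter subunit TAP2 (-0.227) were also lower. Against siMock at 5 mM, where 8.8% of all genes were higher and 4.91% lower, the directions were different. There 6 interferon-stimulated genes were higher and 1 lower, and 5 class I genes were higher and 0 lower. GBP5, above, is interferon-inducible but stood among the largest rises.

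Ribosome biogenesis genes were nearly level, with 6 of 32 higher and 0 lower (5.71% and 5.1% of all genes) and a median difference of 0.0255. At the shared dose of 2 mM, 18 of the 32 were higher in siACL than in siMock (10.6% of all genes), with a median difference of 0.134. The list median was 0.858, 0.871 and 0.844 in siACL at 5 mM, against 0.815, 0.844 and 0.83 in siMock at 2 mM, and 1.01, 1.03 and 1.05 in siACL at 2 mM. RRP12, a factor for ribosome export, had 0.696, 0.689 and 0.692 in siACL at 5 mM, against 0.537, 0.44 and 0.555 in siMock at 2 mM (difference 0.18 ± 0.0317, adjusted p = 0.0014). RRS1, POLR1C, GNL3, DDX21 and BOP1 were the other called members. Of 20 aminoacyl-tRNA synthetases 5 were higher and 0 lower, led by RARS at 0.16 ± 0.0215 (adjusted p = 0.00014).

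Lipid genes, which draw on the acetyl-CoA made by ACLY, were split. Of 24 cholesterol synthesis genes 3 were higher and 3 lower (5.71% and 5.1% of all genes). At the shared dose of 2 mM 19 had been higher in siACL than in siMock and 1 lower (10.6% and 8.52% of all genes), with a median difference of 0.21. HMGCS1, which makes HMG-CoA, had 1.29, 1.33 and 1.26 in siACL at 5 mM, against 1.04, 1.15 and 1.16 in siMock at 2 mM (difference 0.18 ± 0.0295, adjusted p = 0.00082). Of 19 genes of fatty acid and triglyceride synthesis 3 were higher and 3 lower. ACSL5, a gut acyl-CoA synthetase, had 0.704, 0.694 and 0.71 in siACL at 5 mM, against 0.384, 0.343 and 0.364 in siMock at 2 mM (difference 0.34 ± 0.0217, adjusted p = 6.9e-08). SREBF1, a master regulator of lipid synthesis, had 0.467, 0.512 and 0.535 in siACL at 5 mM, against 0.775, 0.768 and 0.759 in siMock at 2 mM (difference -0.26 ± 0.0222, adjusted p = 1.3e-06).

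Genes of central carbon use moved little. Of 18 genes of acetyl-CoA and citrate supply 2 were higher and 2 lower, ACLY included (5.71% and 5.1% of all genes). SLC25A1, the carrier that exports citrate from mitochondria, had 0.939, 0.979 and 0.991 in siACL at 5 mM, against 1.09, 1.07 and 1.08 in siMock at 2 mM (difference -0.11 ± 0.0279, adjusted p = 0.016). ME1 and MDH1, which process malate in the cytosol, were higher by 0.107 and 0.088. Of 20 genes of glycolysis and glucose uptake 2 were higher and 1 lower: the glucose transporter SLC2A3 by 0.158, PFKFB3, which makes an activator of glycolysis, by 0.149, and PFKL by -0.109. None of the 21 genes of butyrate transport and fatty acid oxidation was called (median difference 0.0029; limma called 1964 genes, and 4399 had an unadjusted p under 0.05).

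Stress and survival genes had few calls, all lower among p53 targets and in both directions among BCL2 family genes and NRF2 targets. Of 21 p53 targets 4 were lower and 0 higher (5.1% and 5.71% of all genes), with a median difference of -0.0535. DDB2, a nucleotide excision repair factor, had 0.286, 0.224 and 0.236 in siACL at 5 mM, against 0.52, 0.56 and 0.62 in siMock at 2 mM (difference -0.32 ± 0.0287, adjusted p = 3e-06). BAX, which permeabilises mitochondria in apoptosis, had 0.414, 0.403 and 0.414 in siACL at 5 mM, against 0.557, 0.546 and 0.666 in siMock at 2 mM (difference -0.18 ± 0.0322, adjusted p = 0.0017). BIK, another proapoptotic BCL2 family gene, differed by 0.132 (adjusted p = 0.006). Of 18 NRF2 targets 2 were higher and 1 lower. NQO1, a quinone reductase, had 1.16, 1.18 and 1.14 in siACL at 5 mM, against 1.41, 1.38 and 1.39 in siMock at 2 mM (difference -0.23 ± 0.0191, adjusted p = 1e-06), and SRXN1, sulfiredoxin, differed by 0.22 ± 0.0267 (adjusted p = 5.2e-05).

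Signalling and lineage genes were mostly higher where called. Of 22 immediate early genes 8 were higher and 0 lower (5.71% and 5.1% of all genes), with a median difference of 0.0658. DUSP1, a MAP kinase phosphatase, had 1.65, 1.59 and 1.62 in siACL at 5 mM, against 1.38, 1.39 and 1.46 in siMock at 2 mM (difference 0.21 ± 0.0382, adjusted p = 0.0016). KLF2, a Krüppel-like factor, had 2.03, 1.98 and 1.96 in siACL at 5 mM, against 1.79, 1.78 and 1.79 in siMock at 2 mM (difference 0.21 ± 0.0237, adjusted p = 2.7e-05). Of 18 Wnt targets and antagonists 6 were higher and 1, RNF43, was lower. DKK1 and NOTUM, both secreted Wnt antagonists, differed by 0.23 each (adjusted p = 5.9e-05 and 0.0098), and EPHB3 by 0.73 (adjusted p = 0.022).

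Neuronal and synaptic genes, silent in most epithelia, held 5 of 22 members higher and 0 lower (5.71% and 5.1% of all genes), with a median difference of 0.128. VGF, a secreted neuropeptide precursor, had 2.70, 2.55 and 2.53 in siACL at 5 mM, against 2.20, 2.20 and 2.17 in siMock at 2 mM (difference 0.41 ± 0.0452, adjusted p = 2.3e-05), and 2.99 on average in siMock at 5 mM. SYT11, of the synaptotagmin family, had 0.963, 0.976 and 0.941 in siACL at 5 mM, against 0.573, 0.579 and 0.543 in siMock at 2 mM (difference 0.40 ± 0.079, adjusted p = 0.0036). STX1A (0.298), TUBB3 (0.193) and RUNDC3A were also higher. CDX2, the intestinal homeobox factor, had 0.602, 0.595 and 0.46 in siACL at 5 mM, against 0.81, 0.812 and 0.719 in siMock at 2 mM (difference -0.23 ± 0.0401, adjusted p = 0.0014), while CA2, a carbonic anhydrase of colonocytes, differed by 0.166 (adjusted p = 0.0036). SIRT7 and SIRT5 were the 2 called members, both higher, of 16 histone deacetylases and sirtuins, at 0.21 and 0.12.

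Comparisons that share no array with this one were set beside it gene by gene. Of the 1038 genes higher in siACL at 5 mM than in siMock at 2 mM, 726 (69.9%) rose and 105 (10.1%) fell in siMock at 5 mM against 0 mM, where 25.6% of all genes rose and 25.2% fell. Of the 926 lower genes, 736 (79.5%) fell there and 42 (4.54%) rose. In siACL against siMock without butyrate, where 6.31% of all genes were called (3.7% higher, 2.61% lower), 152 of the 1038 higher genes (14.6%) were higher and 30 lower, and 74 of the 926 lower genes (7.99%) were lower and 25 higher. In siACL at 2 mM against siMock at 0.5 mM, another pair of neighbouring doses in which 1238 genes were called (6.81%; 4.17% higher, 2.65% lower), 160 of the 1038 (15.4%) were higher and 16 lower, and 118 of the 926 (12.7%) were lower and 44 higher. Pearson's r of the differences across the 18172 genes was 0.313, 0.147 and 0.178 in that order, as a description, since genes are not independent and low genes carry more noise.

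The level of a gene set how small a difference could be called. In the 4543 genes with the lowest mean score the median residual SD was 0.416 and 3.81% were called, whereas in the 4543 with the highest it was 0.0333 and 20.1% were called. The share of level genes was 0.066% in the lowest and 95.4% in the highest. By mean score over all 24 arrays, the large rises and falls named above lie below the middle of the array, where the spread is wide. The mitotic list, by its median, and ACLY lie above it. In siACL at 5 mM alone, the rises GBP5, CRYBA4 and FAM50B scored above 0 in each array. Epithelial markers of the line ranged widely in score. KRT19 stood highest, at 2.18 to 2.29 in siACL at 5 mM, against 2.17 to 2.23 in siMock at 2 mM. KRT18, at 0.0894 to 0.126 against 0.148 to 0.238, and CLDN4, at -0.201 to 0.0752 against -0.0908 to 0.0636, stood near the middle rank. Of 8 epithelial entries 0 were higher and 4 lower, namely EPCAM under both its symbols, CDH1 and ELF3, and EPCAM ranged from 1.44 to 1.54 in siACL at 5 mM, against 1.60 to 1.65 in siMock at 2 mM. The mean score of 7 markers of fibroblasts, endothelium and hepatocytes was between -0.878 and -0.743 in siACL at 5 mM, against -0.823 to -0.539 in siMock at 2 mM, with adjusted p of at least 0.21 for each, and their part in the results was not tested. That mean hides the fibroblast marker COL1A1, which stood above KRT18 and CLDN4, at 0.49 to 0.51 in siACL at 5 mM, against 0.539 to 0.61 in siMock at 2 mM. PTPRC, CD3E, CD14, DCN, LUM and CDH5 were not analysed here.

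**Figure D5:**
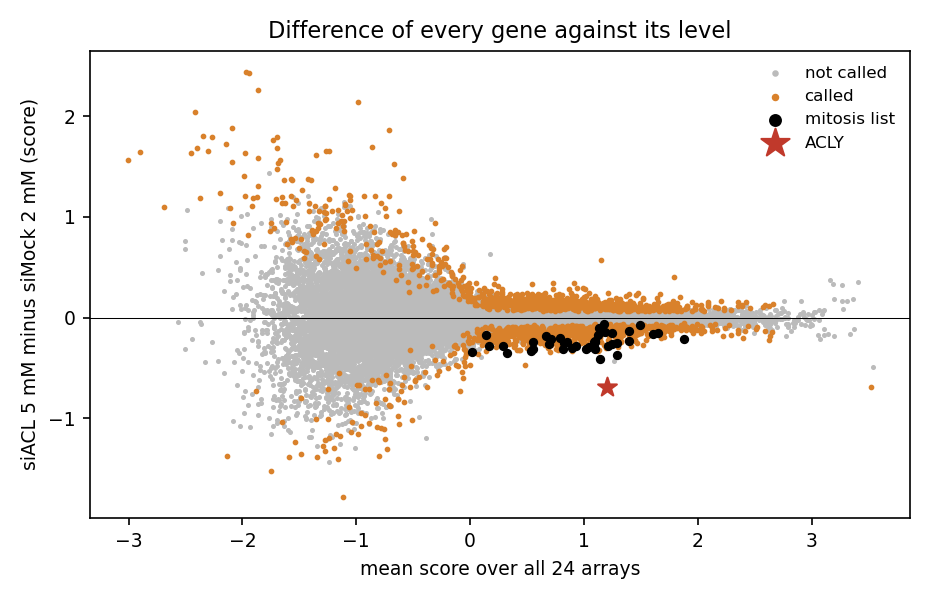
Difference of each of the 18172 genes (siACL at 5 mM minus siMock at 2 mM, score units, y axis) against its mean score over all 24 arrays (x axis); grey points are not called, orange points called, black points the mitosis list and the star ACLY. Spread is wide at low scores and narrow at high scores, and the mitosis list (median -0.249) and ACLY (-0.69) lie below 0.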

How the data were processed

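RNA of 24 HCT116 cultures was labelled as biotin cRNA and hybridised to Illumina arrays, per the labels. The authors deposited a table of 1 score per entry and array. Compared with the array's own ranks, each score lies within 0.00074 of the normal quantile of its rank. The sources used here do not say how background was treated or why ranks were taken. A second deposited table with 48 signal and detection columns was used for annotation only, since its columns are not tied to samples here. Depth has no meaning for these arrays; their number, 3 per group, limits the precision. Of 20747 entries, 20729 were found in that annotation, and 2575 without a gene symbol were left out, which left 18172 genes (12258 matched to RefSeq by accession, 951 by symbol and 332 by synonym). Every array was used with its labelled group, and the groups' replicates are separate samples per the labels.

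The scores were tested with limma 3.58.1 in R 4.3.3 on all 24 arrays with 1 mean per group and Benjamini-Hochberg adjustment over all genes, two-sided. A gene outside all siMock doses had to differ in 1 direction from each, with the largest of the 4 p-values adjusted. The fit was tested on simulated data of 18172 genes, where it found 59.7%, 68.7% and 81.8% of the differences of 0.25, 0.5 and 1 put in. These were put into 67, 67 and 66 genes, fewer than the 1964 called in the real data. The simulation gave each gene 1 spread in all groups, as the fit assumes, so it cannot test that assumption. Genes named were ACLY, the 12 largest called rises and falls without overlap, the level and opposite extremes described, and, from each list, the called members with the largest differences, no more than 4 (5 where no more were called); CENPA, ASPM, RNF43, HIST1H4C, H2AFX, the uncalled mitotic genes, DDX21 and BOP1 were named after their values were seen; a few results on single genes are left out here. The comparison and the gene lists were chosen with earlier results of these data known. Same-numbered replicates did not deviate together (correlations 0.0127, -0.0042 and -0.007), so no pairing was used. Alternatives were fewer arrays, a replicate block, array weights, a trended prior, percentile ranks, only genes with a mean score above 0, other thresholds and leaving out arrays.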

Additional observations from a re-analysis of the deposited data

How the results depend on the processing

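Higher calls outnumbered lower ones in the fit of all arrays, but not at an adjusted p under 0.01 (444 and 452), without siACL replicate 1 (622 and 654) or among genes with a mean score above 0 (1170 and 1175). The count of called genes (1964; 1038 higher, 926 lower) was 57 (35, 22) with only the arrays compared, 896 (444, 452) at an adjusted p under 0.01 and 409 (247, 162) when a difference of at least 0.25 was also asked for. Leaving out 1 array gave 1276 to 1636 (622 to 896 higher, 638 to 740 lower); the higher count was 622 without siACL replicate 1, 671 without siACL replicate 3 and 691 without siMock replicate 3. With a replicate block 1877 genes were called, and no count given here moved by over 1.5 times; the replicates share only a number. Genes outside all siMock doses (1) numbered 0 with only the arrays compared, 3 with percentile ranks and 1 to 1 without an array. Level genes (9237) numbered 8805 to 8928 without an array. List members called (146 distinct) numbered 14, 95 and 32 under the same 3 settings as the total, and 108 to 126 without an array. Of genes rising in control cells, 105 were called higher, but 26 with only the arrays compared, 180 with percentile ranks, 25 among genes with a mean score above 0, 52 at 0.01 and 66 to 85 without an array; the 0 called lower became 1 with percentile ranks and 0 to 1 without an array. Of falling genes, the 8 higher became 2, 5, 0 and 5 in the same order of settings and 5 to 9 without an array; the 23 lower became 3 with only the arrays compared, 14 among genes with a mean score above 0, 10 at 0.01 and 15 to 21 without an array. The causes were not tested, beyond the fewer arrays or genes that a setting holds by construction. Of 123 named called genes, 107 lost the call with only the arrays compared and 28 with percentile ranks; 47 lost the call without at least 1 array and none changed sign under the alternatives counted. Low genes limit the precision, since their arrays spread most.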

Other observations

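Several lists had calls near the share of all genes (5.71% higher, 5.1% lower). Of 31 proteasome subunits 3 were higher (PSMA2, PSMD2 and PSMD6) and 1 lower (PSMD11), with a median difference of 0.00603. Of 30 respiratory chain genes 2 were higher (SDHB and UQCRFS1) and 1, SDHC, was lower by 0.147. Of 16 ATF4 and CHOP stress genes 1 was higher (PPP1R15A) and 2 lower (DDIT4 and PHGDH). Of 16 endoplasmic reticulum chaperones and partners 2 were higher, the HSP40 family genes DNAJB9 (0.168, adjusted p = 0.013) and DNAJB11 (0.147, adjusted p = 0.00086), and 0 lower. Of 15 goblet, mucin and gut hormone genes 1 was higher: SCG2, a secretogranin, had 0.838, 0.777 and 0.799 in siACL at 5 mM, against 0.492, 0.556 and 0.527 in siMock at 2 mM (difference 0.28 ± 0.0253, adjusted p = 3e-06). Of 14 keratins KRT15 was the 1 member called, 0.21 higher. Of 13 enterocyte genes 2 were higher (CA2 and KLF4) and 1 lower (CDX2), and of 6 MHC class II genes 1 was lower (HLA-DRA). Of 14 BCL2 family genes 1 was higher (BIK) and 1 lower (BAX). No gene was called among 7 cancer-testis genes and 15 histone acetyltransferases in the limma fit that called 1964 genes, 4399 at an unadjusted p under 0.05; with only the arrays compared 57 genes were called in all.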
